A study of Homo sapiens with 9 samples.

Results

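Oxidative phosphorylation genes were followed in human embryonic stem cells on their way to serotonin neurons. They were chosen by symbol, as protein-coding genes for subunits of the respiratory chain complexes I to IV, of ATP synthase (complex V) and for cytochrome c, with 1 row per symbol. The rule found 102 genes of 34961 in the table, 13 encoded by the mitochondrial genome and 89 by the nuclear genome. By complex they were 44 genes of complex I, 4 of complex II, 11 of complex III, 21 of complex IV, 21 of complex V and CYCS, which codes for cytochrome c. NDUFA4 and its paralog NDUFA4L2 were counted with complex IV. Enough counts for a test were found for 97 of the 102, and the 5 without a test were ATP5MGL, COX4I2, COX6A2, COX7A1 and COX8C.

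The cells were WA09, a line of human embryonic stem cells often called H9, with the fluorescent reporter EGFP knocked in at TPH2, the gene of the enzyme that makes serotonin in the brain. All 9 libraries carried the knock-in and the same label for serotonin neuron induction, and each day had 3 libraries: undifferentiated cells on Day0, cells labelled neural progenitors on Day21 and cells labelled TPH2+ serotonin neurons on Day42. The labels call the libraries of a day biological replicates but give no word on whether each was its own differentiation. The p-values therefore cover the spread among libraries, possibly technical. Nor do they say whether Day42 cells were sorted by the reporter, or whether the line was 1 clone.

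Oxidative phosphorylation passes electrons from NADH and succinate through complexes I and II to complex III, on by cytochrome c to complex IV and finally to oxygen. The protons pumped on the way drive ATP synthase. Complex II is encoded by nuclear genes alone, while the other complexes are assembled from subunits of both genomes. Neurons depend on this pathway for most of their ATP, whereas pluripotent stem cells make much of theirs by glycolysis.

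Total counts were 58526466 to 69658328 per library. The number of genes with a count was 22198 to 24741 in the Day0 and Day21 libraries and 17101, 16077 and 10797 in Day42 libraries 2, 1 and 3. Day42 library 3 stood apart from the other Day42 libraries. The 10 neuron markers summed to 145 to 159 CPM on Day0, 839 to 1218 on Day21 and 7323 to 8488 in the Day42 libraries, and the 8 pluripotency markers to 1543 to 2412, 53.6 to 88.4 and 0.0589 to 0.142 CPM. The 8 progenitor markers were highest on Day21, at 1290.2 to 1446 CPM. Among the 8 serotonin neuron markers, which summed to 1117 to 1348 CPM on Day42, the serotonin transporter SLC6A4 had no count in any Day42 library. The 8 mesenchymal markers summed to 156 to 181, 592 to 644 and 131 to 169 CPM and the 9 glial markers to 19.0 to 25.6, 72.5 to 78.7 and 10.2 to 13.9 CPM on the 3 days, and the part of other cells in the results below was not tested. Levels are in CPM, the counts of a gene relative to all counts of its library, scaled by TMM, which sets the libraries to a common scale by genes with typical ratios. A gene is said to have risen or fallen at a Benjamini-Hochberg adjusted p under 0.05 over all 20156 genes tested with a log2 fold change of 1 or more in either direction, by edgeR's quasi-likelihood test.

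Transcripts of both genomes took a much smaller share of the counts on Day42 than on either earlier day. The 13 mitochondrial-encoded genes took 8.11, 5.58 and 7.97% of all counts in the Day0 libraries, 6.87, 6.45 and 6.04% on Day21 and 1.79, 1.68 and 1.60% in the Day42 libraries. The 89 nuclear-encoded genes took 5.61, 5.39 and 4.25%, 4.39, 6.33 and 6.45% and 3.05, 2.58 and 3.17%. Every Day42 library lay below every Day0 and Day21 library for both genomes, whereas the Day0 and Day21 libraries overlapped. The mean for all 102 genes was 12.3 ± 1.38% of counts on Day0, 12.2 ± 0.805% on Day21 and 4.62 ± 0.314% in the Day42 libraries (SD, n = 3). All protein-coding genes with a median annotated mRNA under 750 bases also took a smaller share, as described below. The mean was 15.5% of counts on Day42 against 28.8% on Day21. In bulk RNA, fewer cells of a type and less RNA per cell cannot be told apart.

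**Figure D1:**
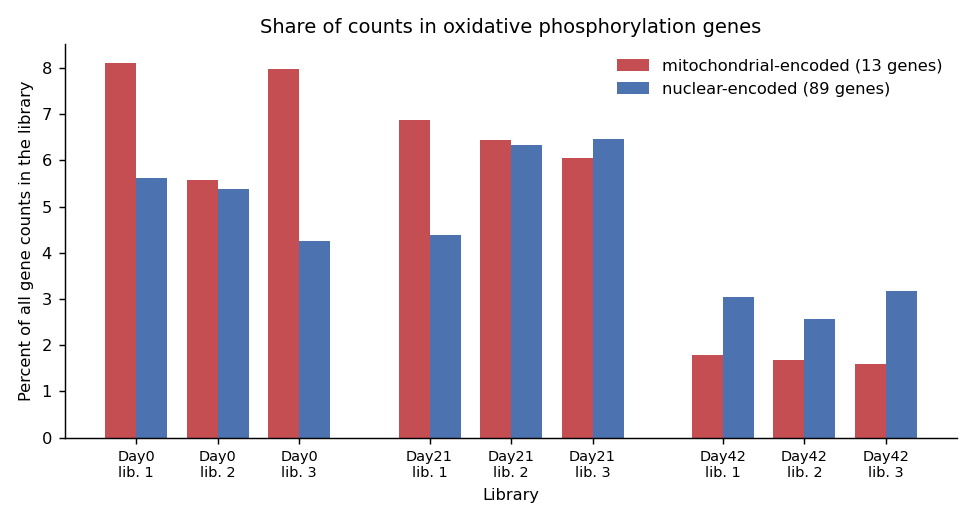
Percent of all gene counts in each of the 9 libraries that fell in the 13 mitochondrial-encoded (red) and the 89 nuclear-encoded (blue) oxidative phosphorylation genes; each bar is 1 library. On Day0 and Day21 the red bars lie between 5.58% and 8.11%, and on Day42 between 1.60% and 1.79%, below the blue bar of the same library.

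The sums of the 2 genomes were also set against each other. The mitochondrial-encoded genes had 1.45 ± 0.420 times the counts of the nuclear-encoded genes on Day0, 1.17 ± 0.341 times on Day21 and 0.581 ± 0.0748 times in the Day42 libraries (SD, n = 3). No test was made of this summed ratio. Per length, in the authors' FPKM, the ratio was above 1 on every day, at 3.50 ± 0.974, 2.83 ± 0.899 and 1.52 ± 0.166. Without the most abundant gene of each genome, the mean log2 ratios of counts for Day0, Day21 and Day42 were -0.75, -1.09 and -1.32, where with all genes it was 0.50, 0.19 and -0.79. The ratio was then below 1 on each day, and most of the gap between Day42 and Day21 was gone. Much of the ratio rested on MT-CO2, which codes for a catalytic subunit of complex IV. MT-CO2 held 59.0 ± 8.91%, 59.8 ± 9.44% and 34.2 ± 2.46% of the mitochondrial-encoded counts on Day0, Day21 and Day42.

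Gene by gene, the large step lay between Day21 and Day42. Set against Day21, 60 of the 97 genes tested fell on Day42 and 1 rose, while 19.7% of all genes tested fell and 6.52% rose. The median log2 fold change was -1.46 over the 97 genes and -0.54 over all genes. Of protein-coding genes with a mean of at least 100 CPM, the range where most of these genes lie, 35.2% fell and 13.1% rose. Set against Day0, 60 of the 97 fell on Day42 and none rose, with backgrounds of 23.4% and 8.82% over all genes and 41.7% and 14% over the abundant ones. DESeq2 called 2 genes higher, beside 13% of all genes. Both comparisons use the same Day42 libraries.

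The first step, by contrast, gave 1 call. On Day21 against Day0, CYCS fell, 96 genes passed no threshold and none rose, beside 1.18% lower and 1.32% higher calls among all genes and 4.14% and 5.57% among the abundant ones. The median log2 fold change was 0.06 over the 97 genes and 0.03 over all genes, and 7 of the 97 had an unadjusted p under 0.05. Without Day42 library 3, whose spread enters the shared fit, 3 genes were lower on Day21 (COX7A1, CYCS and SDHD) and none was higher. Of all genes in that fit, 6.69% were lower and 6.57% higher. DESeq2 called 2 lower and none higher, beside 7.76% and 6.88% of all genes.

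**Figure D2:**
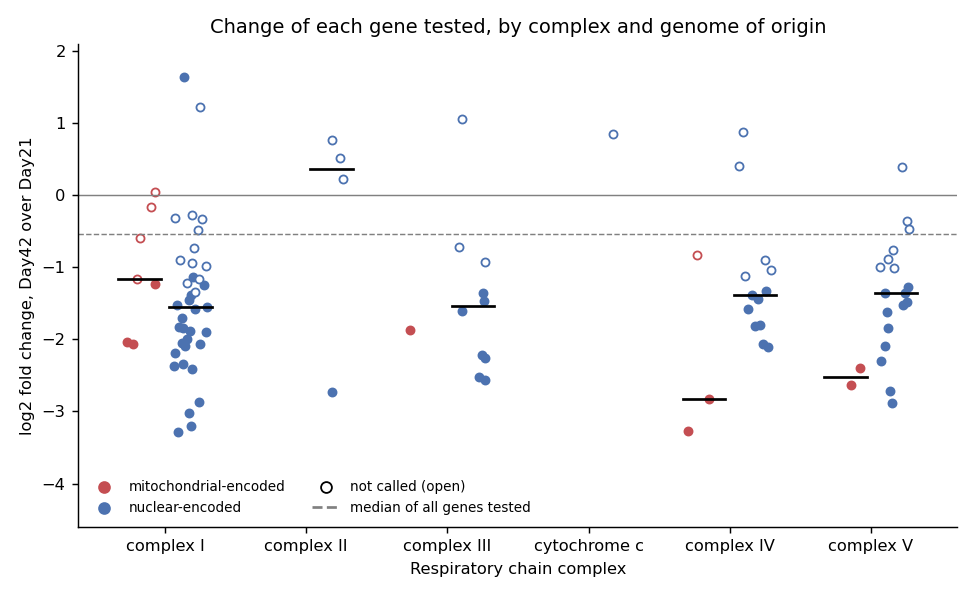
Log2 fold change, Day42 over Day21, of each oxidative phosphorylation gene tested (vertical axis) by complex (horizontal axis), red for mitochondrial-encoded and blue for nuclear-encoded genes, filled where called; black bars are group medians and the dashed line is the median of all genes tested, -0.54. COX6B2, at 0 counts on Day42, is left out; complexes I, III, IV and V centre below the dashed line, and 3 of the 4 complex II genes lie above 0.

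Among the 13 mitochondrial-encoded genes, 8 fell on Day42 against Day21 and none rose, with a median log2 fold change of -1.87; of the 84 nuclear-encoded genes tested, 52 fell and 1 rose, with a median of -1.45. MT-CO2 had 67566, 43286 and 41262 CPM on Day0, 32339, 51490.0 and 44569 on Day21 and 5029, 3921 and 4384 in the Day42 libraries. It fell on Day42 against Day21 (log2 fold change -3.27 ± 0.26, adjusted p = 0.00026), and its Day42 libraries lay far below all others. Against Day0 the log2 fold change was -3.51 ± 0.26 (adjusted p = 0.000131). Per length, MT-CO2 was the most abundant of the 102 genes on each day, at a mean of 50534, 44318 and 7296 FPKM.

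Differences in size between the mitochondrial-encoded genes were not tested. From MT-CO2 on, the next 5 protein genes in genome order fell as well: MT-ATP8 by 2.40, MT-ATP6 by 2.63, MT-CO3 by 2.83, MT-ND3 by 2.03 and MT-ND4L by 2.06 on the log2 scale. They code for subunits of ATP synthase, complex IV and complex I. The call of MT-ND3 was lost in 12 of 24 alternatives. MT-CO3, for example, had 6415, 3122 and 12766 CPM on Day0, 5166, 4017 and 3183 on Day21 and 493, 615 and 637 in the Day42 libraries. MT-CYB, the cytochrome b of complex III, fell by 1.87 and MT-ND4, a proton-pumping subunit of complex I, by 1.23 on the same scale.

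The other 5 did not pass the test between Day42 and Day21. MT-ND2, a proton-pumping subunit of complex I, had 737, 549 and 929.7 CPM on Day0, 684, 472 and 468 on Day21 and 467, 529 and 675 in the Day42 libraries, and the Day42 and Day21 libraries overlapped (log2 fold change 0.04 ± 0.26, adjusted p = 0.951). MT-ND1, which sits at the ubiquinone site of complex I, had 284, 352 and 384 CPM on Day42, against 533, 484 and 522 on Day21. The Day42 libraries were all lower and the adjusted p was 0.0324, but the log2 fold change of -0.59 ± 0.17 was under the size required. MT-CO1, the subunit of complex IV that reduces oxygen, had 4833, 3292 and 9184 CPM on Day0, 3586, 1646 and 1344 on Day21 and 1146, 1278 and 1267 in the Day42 libraries. Its log2 fold change on Day42 was -0.83 ± 0.45 against Day21 (adjusted p = 0.22) and -2.23 ± 0.46 against Day0 (adjusted p = 0.00733), so it fell only in the comparison with Day0; the difference between those comparisons was not tested. MT-ND5 and MT-ND6 had log2 fold changes of -1.17 ± 0.43 and -0.16 ± 0.44 against Day21. MT-ND6 is the only protein gene on the light strand, and its levels were 75.0, 83.0 and 64.8 CPM on Day0, 212, 95.6 and 95.4 on Day21 and 163, 134 and 63.4 in the Day42 libraries. Per length, MT-CO2 had 23.8 ± 11.8 times the level of MT-CO1 on Day0, 55.2 ± 30.3 on Day21 and 8.21 ± 1.53 in the Day42 libraries (SD, n = 3), with a spread among Day0 and Day21 libraries that is wide.

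**Figure D3:**
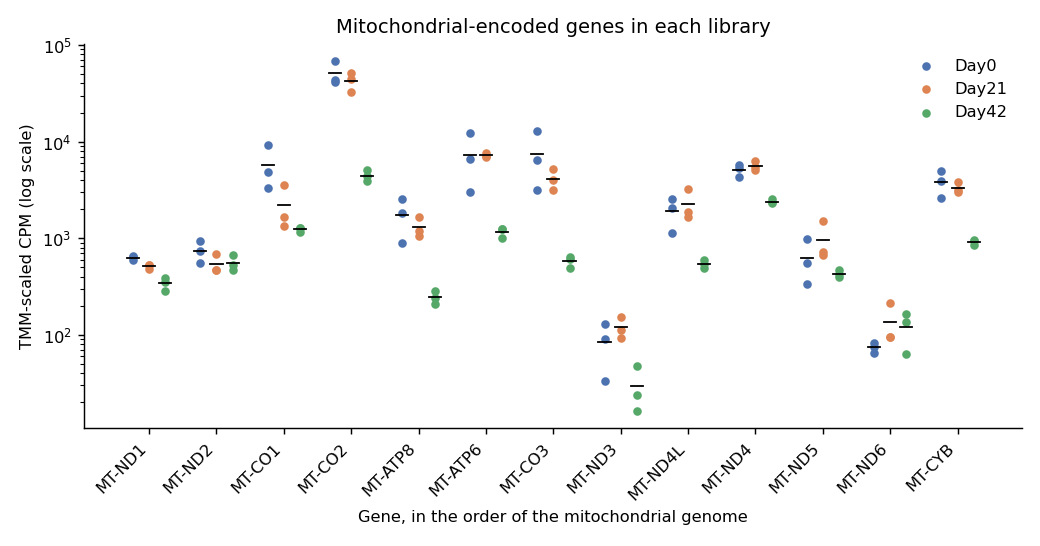
TMM-scaled CPM (log axis) of the 13 mitochondrial-encoded genes in genome order; each point is 1 of the 9 libraries, coloured by day, and black bars are day means. Day42 points lie below all others from MT-CO2 to MT-ND4, except for MT-ND3 in Day0 library 2, while those of MT-ND2 and MT-ND6 overlap the earlier days.

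Nuclear copies of the mitochondrial genes can take reads from them. The table lists 49 such copies of protein genes, and their counts came to a mean of 1.89%, 1.56% and 1.46% of the mitochondrial-encoded counts on the 3 days. MTATP6P1 is the copy that matters for MT-ATP6: its counts were 15.4, 15.6 and 45.6% of those of MT-ATP6 in the Day0 libraries and 13.8, 13.7 and 13.7% on Day42. Day0 library 3, where that share was highest, also had the lowest MT-ATP6 level of its day, 3000.0 CPM. MT-ATP6 and MT-ATP8 overlap each other in the genome, as do MT-ND4 and MT-ND4L, so the split of reads within these pairs is uncertain.

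Complex I takes electrons from NADH. Of its 37 nuclear-encoded genes, 24 fell and 1 rose on Day42 against Day21, and 25 fell and none rose against Day0. Summed over the 37 genes, the level was 25741, 21945 and 15262 CPM on Day0, 15542, 29326 and 27209 on Day21 and 7589, 5879 and 7393 in the Day42 libraries. The Day42 sums lay below all the others.

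The largest falls against Day21 were those of 3 accessory subunits. NDUFA7 had 198, 189 and 119 CPM on Day0, 165, 301 and 284 on Day21 and 21.5, 44.9 and 10.2 in the Day42 libraries, and fell (log2 fold change -3.29 ± 0.56, adjusted p = 0.004). NDUFS5, a small subunit on the intermembrane side, had 3041, 2242 and 1736 CPM on Day0, 1729, 3295 and 3156 on Day21 and 368, 288 and 232 in the Day42 libraries, and fell (log2 fold change -3.20 ± 0.34, adjusted p = 0.00072). NDUFS6, the zinc-binding subunit beside the NADH-oxidizing arm, had 1920.3, 1252 and 1323 CPM on Day0, 1139, 1986 and 1751 on Day21 and 204, 203 and 197 in the Day42 libraries, and fell (log2 fold change -3.02 ± 0.26, adjusted p = 0.000352). For each of the 3 genes, no Day42 library reached the lowest value of the other days. NDUFB10 stood with them against Day0 (log2 fold change -3.16 ± 0.30).

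The 7 nuclear-encoded core subunits, which hold the flavin and iron-sulfur clusters, did not all pass the test. On Day42 against Day21, 4 fell (NDUFS3, NDUFS7, NDUFS8 and NDUFV2) and 3 did not pass. NDUFS7, which carries the last cluster before ubiquinone, had 190.3, 109 and 198 CPM on Day42, against 564, 863 and 839.8 on Day21 (log2 fold change -2.19 ± 0.31, adjusted p = 0.00215). NDUFS1, the largest iron-sulfur subunit, had 52.8, 59.9 and 66.1 CPM on Day0, 58.0, 45.6 and 48.2 on Day21 and 85.5, 69.8 and 200.2 in the Day42 libraries. Its Day42 libraries were all higher than those of Day21, without passing the test (log2 fold change 1.23 ± 0.41, adjusted p = 0.0596). NDUFV1, where NADH is oxidized, had a log2 fold change of -0.32 ± 0.31 with overlapping libraries. This grouping by role, and those below for complexes II, III and V, were drawn up after the values were seen.

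NDUFA5, an accessory subunit of the ubiquinone-binding arm, was the 1 gene of the 97 that rose on Day42 against Day21. It had 141, 288 and 94.0 CPM on Day0, 84.8, 162 and 128 on Day21 and 397, 496 and 272 in the Day42 libraries, so the Day42 libraries were all higher than those of Day21 while the lowest of them overlapped Day0. The log2 fold change was 1.64 ± 0.45 against Day21 (adjusted p = 0.0294) and 1.16 ± 0.45 against Day0 (adjusted p = 0.084). The call against Day21 was lost when any 1 of the 3 Day21 libraries was left out, with log2 fold changes from 1.47 upward over all alternatives.

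Complex II, succinate dehydrogenase, links the chain to the tricarboxylic acid cycle. Its 4 genes summed to 959.6, 1089.8 and 619.9 CPM on Day0, 578, 711 and 662 on Day21 and 622, 431 and 732 in the Day42 libraries. The sums of Day42 and Day21 overlapped. SDHC, a membrane anchor, was the only one of the 4 that passed: it had 269, 179.6 and 236 CPM on Day0, 256, 311 and 219 on Day21 and 39.9, 44.2 and 35.0 in the Day42 libraries, with no overlap of Day42 with either earlier day (log2 fold change -2.72 ± 0.25, adjusted p = 0.000465 against Day21; log2 fold change -2.52 ± 0.25, adjusted p = 0.000403 against Day0). SDHA, the flavoprotein that oxidizes succinate, had 77.7, 106 and 92.7 CPM on Day0, 145, 128 and 127 on Day21 and 253, 153 and 61.9 in the Day42 libraries, a wide spread within Day42 (log2 fold change against Day21 0.22 ± 0.44). SDHB, the iron-sulfur subunit, had 211, 123 and 352 CPM on Day42, against 92.0, 140.2 and 172 on Day21, with overlap. SDHD, the other anchor, had 337, 492 and 174 CPM on Day0, 83.9, 132 and 144 on Day21 and 119, 111 and 283 in the Day42 libraries, and all 3 Day21 libraries were below those of Day0 (log2 fold change -1.48 ± 0.49, adjusted p = 0.157).

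Complex III passes electrons to cytochrome c. On Day42 against Day21, 7 of its 10 nuclear-encoded genes fell and none rose; against Day0, 8 fell. UQCRQ, UQCR10 and UQCRH, small subunits without a redox group, fell most against Day21. UQCRH, the hinge protein at the cytochrome c docking site, had 1624, 1394 and 1227 CPM on Day0, 586, 891 and 876 on Day21 and 175, 121 and 197 in the Day42 libraries, and fell against both days (log2 fold change -2.26 ± 0.26, adjusted p = 0.00101 against Day21; log2 fold change -3.11 ± 0.27 against Day0). UQCR10 had 485, 319.5 and 568 CPM on Day42, against 1431, 3233 and 3187 on Day21, and UQCRQ had 483, 398 and 552 CPM, against 1634, 3614 and 3229 (log2 fold changes -2.52 ± 0.41 and -2.56 ± 0.37). Neither gene's Day42 libraries overlapped those of Day21.

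Of the larger subunits, CYC1, which holds cytochrome c1, and the core protein UQCRC1 fell by 1.47 and 1.36 on the log2 scale against Day21. UQCRFS1, the Rieske iron-sulfur protein, had a log2 fold change of -0.72 ± 0.18 against Day21, under the size required (adjusted p = 0.0187), and fell against Day0 (-1.07 ± 0.18). UQCRC2, the partner core protein of UQCRC1, had 171, 274 and 145 CPM on Day0, 164, 180.3 and 182 on Day21 and 304, 208 and 589 in the Day42 libraries, with every Day42 library above those of Day21 and no call (log2 fold change 1.06 ± 0.40, adjusted p = 0.0849). UQCRHL, an intronless relative of UQCRH, had counts equal to 1.58 ± 0.130%, 1.86 ± 0.0677% and 4.11 ± 3.63% of those of UQCRH (SD, n = 3), and reads of the 2 genes may be mixed.

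CYCS took another course. It had 829.6, 945 and 748 CPM on Day0, 353, 408 and 387 on Day21 and 543, 588 and 948 in the Day42 libraries, a mean of 841 ± 99.0, 383 ± 27.9 and 693 ± 222 CPM (SD, n = 3). The Day21 libraries lay below all the others, and those of Day42 and Day0 overlapped. CYCS fell on Day21 against Day0 (log2 fold change -1.14 ± 0.24, adjusted p = 0.0484), a call that was lost in 11 of 24 alternatives, among them leaving out any 1 of the 6 Day0 and Day21 libraries, with log2 fold changes of -1.21 to -1.04. On Day42 against Day21 its log2 fold change was 0.86 ± 0.24 with an adjusted p of 0.0286, under the size required; against Day0 it was -0.28 ± 0.23 (adjusted p = 0.424).

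**Figure D4:**
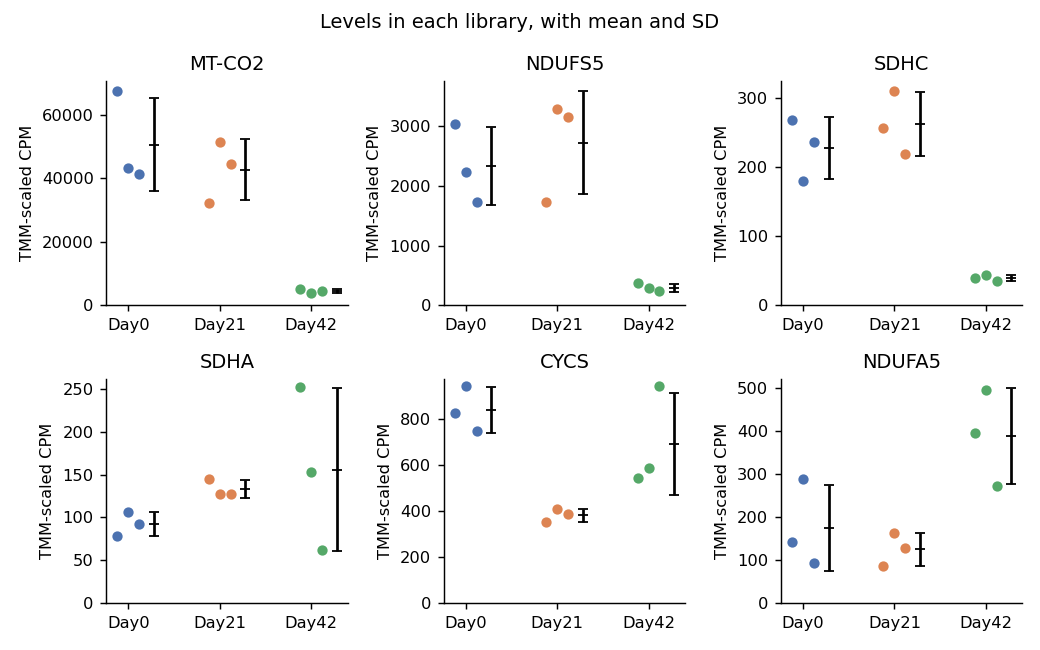
TMM-scaled CPM of 6 genes in each of the 9 libraries (points, by day), with the day mean and SD (bars, n = 3); vertical axes start at 0 and differ between panels. MT-CO2, NDUFS5 and SDHC are low in all 3 Day42 libraries, CYCS is lowest on Day21, NDUFA5 is highest on Day42 and SDHA spreads from 61.9 to 252.6 CPM within Day42.

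Complex IV hands the electrons to oxygen. Of its 18 nuclear-encoded genes, 14 were tested; 9 fell and none rose on Day42 against Day21, and 8 fell and none rose against Day0. COX4I1, the main form of the subunit that regulates the enzyme by ATP, had 1112, 1029 and 838 CPM on Day0, 719, 1032 and 1137 on Day21 and 279, 219 and 194 in the Day42 libraries, and fell (log2 fold change -2.06 ± 0.24, adjusted p = 0.00111). COX7C, a small membrane subunit, had 292, 209 and 350.3 CPM on Day42, against 841, 1529 and 1274 on Day21 (log2 fold change -2.10 ± 0.28, adjusted p = 0.00197). For both genes the Day42 libraries were apart from those of Day21. COX6A1 had 3340.5, 3491 and 1226 CPM on Day0, 1187, 2889 and 3129 on Day21 and 1234, 954 and 1140.1 in the Day42 libraries, with overlap between Day42 and Day21 and no call (log2 fold change -1.11 ± 0.45, adjusted p = 0.112). NDUFA4, once assigned to complex I, fell by 1.44 on the log2 scale.

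The isoforms that replace these subunits in particular tissues were nearly silent throughout. COX6A2 and COX7A1, the heart and muscle forms, had at most 0.114 and 0.358 CPM in any library, all of it on Day0, and 0 in all Day42 libraries. COX4I2, the form of lung and low oxygen, had counts in 1 Day21 library alone, at 0.0904 CPM. COX8C, a testis form, reached 0.219 CPM on Day21 and was at 0 on Day42. In the same libraries the 12 muscle and heart markers summed to 601 to 797 CPM on Day0, 7.29 to 12.8 on Day21 and 4.70 to 11.2 in the Day42 libraries, where 8 of the 12, TNNT2 and ACTC1 among them, had no count. COX6B2, a form best known from testis, had 3.18, 1.33 and 2.12 CPM on Day0, 0.276, 1.41 and 0.325 on Day21 and no count on Day42. Against the limit that a count of 0 allows, set at 12 counts per library because counts in the table pile up at multiples of 4, on Day42 it was at least 4.59-fold lower relative to Day21 and at least 15.1-fold lower relative to Day0. The limit against Day21 rested on Day21 library 2 and was 2.06-fold without it. Those limits cover counting error only. NDUFA4L2, known as a hypoxia-induced paralog of NDUFA4, had 0.0896, 0.0726 and 0.343 CPM on Day0, 0.943, 1.21 and 1.07 on Day21 and 0, 0.389 and 3.86 in the Day42 libraries, so its Day42 mean rested on 1 library. COX7A2L, which helps to join complexes III and IV into supercomplexes, had 58.7, 137 and 51.0 CPM on Day0, 143, 104 and 122 on Day21 and 223, 93.6 and 364 in the Day42 libraries (log2 fold change against Day21 0.88 ± 0.54, adjusted p = 0.285).

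ATP synthase, complex V, has a catalytic head, a peripheral stalk and a membrane part with a turning ring. Differences between these groups were not tested. Of the 5 genes of the head, ATP5F1E alone fell on Day42 against Day21 (log2 fold change -1.36 ± 0.30, adjusted p = 0.012), and none fell against Day0. ATP5F1A and ATP5F1B, the alpha and beta subunits that make ATP, had log2 fold changes of -0.36 ± 0.22 and -0.47 ± 0.37 against Day21. ATP5F1A had 1735, 2601 and 1587 CPM on Day0, 1188, 1491 and 1417 on Day21 and 1243, 968 and 985 in the Day42 libraries, and ATP5F1B had 730.1, 664 and 1493 CPM on Day0, 1379, 935 and 884 on Day21 and 626, 616 and 1067 in the Day42 libraries; the Day42 and Day21 libraries of both genes overlapped. Among the 4 genes of the peripheral stalk, 1 fell, ATP5PF, by 1.84 on the log2 scale.

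In the membrane, all 3 genes of the c ring and all 5 tested genes of the small membrane subunits fell on Day42 against Day21, and the same 8 fell against Day0. Against Day21 the call of ATP5MC1 was lost in 8 of 24 alternatives and its direction turned in 1 more, and against Day0 the call of ATP5MC2 was lost in 12. With the length trend removed, as described below, ATP5MF alone of the 8 stayed called against Day21. ATP5MC1, ATP5MC2 and ATP5MC3 code for one and the same c subunit behind different import signals. ATP5MC2 had 335, 304 and 199 CPM on Day0, 308, 539.8 and 610.2 on Day21 and 64.8, 61.9 and 169 in the Day42 libraries, the most uneven of the 3 on Day42, and fell (log2 fold change -2.30 ± 0.47, adjusted p = 0.00822). ATP5ME, subunit e, had 2214, 1347 and 1106 CPM on Day0, 727, 1888 and 1588 on Day21 and 251, 145 and 176 in the Day42 libraries, and fell (log2 fold change -2.88 ± 0.43, adjusted p = 0.00273). ATP5MF, subunit f, had 1270.3, 869.6 and 886 CPM on Day0, 781, 1456 and 1265 on Day21 and 223, 154 and 158 in the Day42 libraries, and fell (log2 fold change -2.71 ± 0.30, adjusted p = 0.00088). The Day42 libraries of these 3 genes lay below all those of Day0 and Day21. ATP5IF1, the protein that blocks ATP synthase when it would run backwards, had 492, 445 and 624 CPM on Day42, against 991, 1963 and 1837 on Day21 and 2833, 2043 and 1452 on Day0, and fell against both (log2 fold change -1.62 ± 0.33, adjusted p = 0.00801 against Day21; log2 fold change -2.02 ± 0.33, adjusted p = 0.00285 against Day0).

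The log2 fold changes on Day42 also went with mRNA length. Of the 97 genes tested, 49 have a median annotated mRNA of at most 750 bases. This median is over annotated transcripts, and the lengths of the transcripts expressed here were not measured. Among other protein-coding genes with a mean of at least 100 CPM, the median log2 fold change on Day42 against Day21 was -2.41 for mRNAs up to 500 bases, -1.30 for those up to 750, -1.09 for those up to 1000, -0.64 for those up to 1500 and -0.09 for those up to 2500. The oxidative phosphorylation genes had medians of -2.06, -1.57, -1.07, -1.46 and -1.05 in the same classes, over 11, 38, 22, 11 and 12 genes. Up to 1000 bases they lay on both sides of the medians of the other genes, and above 1000 bases they lay below them. On Day21 against Day0 the other genes showed no such order, with class medians from -0.28 to -0.04. The share of counts in all protein-coding mRNAs under 750 bases was 28.1 ± 2.27% of counts on Day0, 28.8 ± 1.91% on Day21 and 15.5 ± 0.872% in the Day42 libraries (SD, n = 3).

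**Figure D5:**
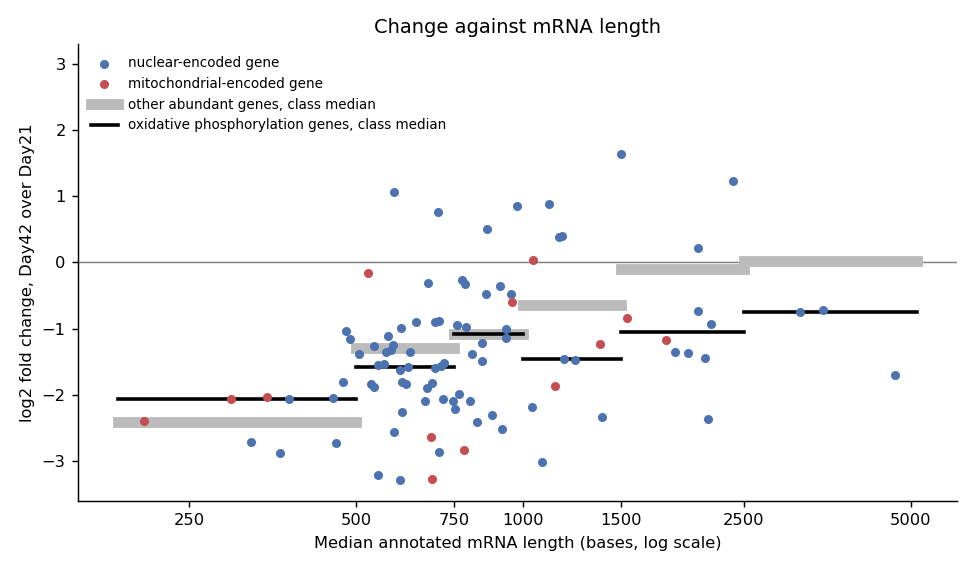
Log2 fold change, Day42 over Day21, against the median annotated mRNA length (log axis) for the oxidative phosphorylation genes tested, COX6B2 left out; points are genes, and horizontal bars are the medians of length classes for these genes (black, COX6B2 included) and for other protein-coding genes with a mean of at least 100 CPM (grey). Grey medians go from -2.41 in the shortest class to 0.03 in the longest, and black medians from -2.06 to -0.75.

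In a fit with the trend on length removed from each library, chosen after seeing the data, most of the calls were lost. The removal took out the level of the trend as well as its slope, so it also rescaled the libraries. On Day42 against Day21, 7 genes then fell and 6 rose. The median log2 fold change was -0.02 over these genes and 0.45 over all 14806 genes with a length. Without the removal the medians were -1.46 and, over all 20156 genes tested, -0.54. SDHC, with a median annotated length of 460 bases, went from -2.72 to -1.30. NDUFS1, with a median of 2394 bases, went from 1.23 to 2.76. The parts of the rescaling and of length in the lost calls were not tested. Of those 14806 genes, 11.1% fell and 11.7% rose, larger shares than among these genes. Those that still fell were MT-CO2 (-1.85), NDUFA7 (-2.11), NDUFS5 (-1.83), NDUFS6 (-1.57), SDHC (-1.30), ATP5MF (-1.26) and COX6B2, which had no Day42 count. Those that rose were NDUFA5 (2.82), NDUFS1 (2.76), UQCRC2 (2.73), COX7A2L (2.59), CYCS (2.46) and SDHB (2.40). The part of length, or of anything else that goes with it, in the falls of the other genes was not tested. On the authors' FPKM, where the unit, filter, scaling and test all differ, limma called 36 of 95 genes lower and 6 higher on Day42 against Day21, with a median of -0.77, and 16.6% of all genes lower and 19.9% higher. Scaling alone, by median of ratios, by upper quartile or with mitochondrial-genome genes left out, gave 60 to 63 lower and 1 higher.

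Genes that serve the chain were counted from lists drawn up with earlier results of these data known. Their counts stand beside the 19.7% of all genes that fell and the 6.52% that rose on Day42 against Day21, and the 35.2% and 13.1% of abundant ones. Of 46 assembly factors, 10 fell and 2 rose on Day42 against Day21, or 21.7% and 4.35%, near the shares over all genes. UQCC2 and UQCC3, needed to assemble complex III, and NDUFAF8, needed for complex I, fell most; UQCC2 had 54.99, 61.3 and 55.2 CPM on Day42, against 423, 958 and 909.5 on Day21 (log2 fold change -3.74 ± 0.36, adjusted p = 0.000519). Of 78 mitochondrial ribosomal protein genes, 26 fell and none rose against Day21, and 33.3% falling is near the share of abundant genes. Against Day0, 46 fell, beside 23.4% of all genes and 41.7% of abundant ones. Of 12 adenine nucleotide and proton carriers, 2 fell (16.7%), the ATP-ADP exchangers SLC25A5 and SLC25A6 (-1.68 ± 0.26 and -1.76 ± 0.21 on the log2 scale). Of 14 creatine kinases and import proteins, 4 fell (28.6%), led by the chaperonin cofactor HSPE1, at 271, 283 and 281 CPM on Day42, against 762, 1789 and 1720.5 on Day21.

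Of 29 genes for mitochondrial DNA and RNA, 3 fell and 5 rose on Day42 against Day21, or 10.3% falling and 17.2% rising. SLIRP, which stabilizes mitochondrial mRNAs, had 4489, 3143 and 1887 CPM on Day0, 938, 2459 and 2232 on Day21 and 196, 202 and 278 in the Day42 libraries, and fell (log2 fold change -3.06 ± 0.44, adjusted p = 0.00244). MTPAP, the mitochondrial poly(A) polymerase, had 26.9, 65.2 and 9.40 CPM on Day0, 10.2, 12.9 and 18.7 on Day21 and 108, 217 and 101 in the Day42 libraries, and rose (log2 fold change 3.35 ± 0.72, adjusted p = 0.0101). MTERF1, a termination factor of mitochondrial transcription, rose as well (2.06 ± 0.57). Of 23 genes of the tricarboxylic acid cycle and pyruvate entry, 3 fell and 4 rose, or 13% and 17.4%. SUCLG2, a subunit of the GTP-forming succinyl-CoA ligase, had 13.9, 13.7 and 16.1 CPM on Day21 and no count on Day42. PDK1, a kinase that holds back pyruvate dehydrogenase, rose (2.62 ± 0.51), and IDH2, the mitochondrial NADP-dependent isocitrate dehydrogenase, fell (-2.50 ± 0.26). Of 20 regulators of nuclear mitochondrial genes, 2 rose (10%), MYC and the AMPK subunit PRKAA1 (2.35 ± 0.66 and 2.44 ± 0.55), and none fell; the transcription factors NRF1 and GABPA, named for the motifs below, had no count in Day42 library 3 and up to 31.2 and 26.9 CPM in the other Day42 libraries.

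Start-site windows of these genes were searched for the motifs by which nuclear genes of the chain are known to be read. The RefSeq table of windows, from 250 bases before to 50 after a start, held 72 of the 89 nuclear-encoded genes. The core of the NRF1 motif, GCATGCGC on either strand, stood in a window of 15 of the 72 genes, or 20.8%, and of 3.68% of all 27305 genes with a window. The ETS motif CCGGAAGT, bound by GABP, stood in 12 of the 72, or 16.7%, and in 4.95% of all. The YY1 motif AAGATGGC stood in 12 of the 72, or 16.7%, and in 3.52% of all. A window of 32 of the 72 held at least 1 of the 3 motifs, against 11.2% of all genes. These are matches of letters, not measured sites, and the choice of motifs followed earlier looks at the windows, which favours high shares among these genes. The background was every gene with a window, not matched to these genes in level or in number of windows, and a match in any window counted. The shares were not tested, and neither was any link of the motifs to the changes by day.

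The windows of 4 genes are shown because their levels took different courses: CYCS, lowest on Day21; NDUFA5, which rose on Day42; UQCRH, which fell on Day42 against both days; and SDHD, lower on Day21 without a call. The build is GRCh38.p14, sequences run 5′ to 3′ along the gene's strand, and capitals mark the NRF1 core in CYCS and NDUFA5, the ETS motif in UQCRH and, in that order, both in SDHD.
CYCS (chr7:25125211-25125510, minus strand): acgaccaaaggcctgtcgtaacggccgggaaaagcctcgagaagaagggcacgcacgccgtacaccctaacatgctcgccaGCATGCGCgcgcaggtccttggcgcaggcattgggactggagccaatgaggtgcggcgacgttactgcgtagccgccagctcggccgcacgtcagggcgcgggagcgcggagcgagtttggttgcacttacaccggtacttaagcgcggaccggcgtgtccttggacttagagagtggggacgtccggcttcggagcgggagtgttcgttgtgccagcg
NDUFA5 (chr7:123557769-123558068, minus strand): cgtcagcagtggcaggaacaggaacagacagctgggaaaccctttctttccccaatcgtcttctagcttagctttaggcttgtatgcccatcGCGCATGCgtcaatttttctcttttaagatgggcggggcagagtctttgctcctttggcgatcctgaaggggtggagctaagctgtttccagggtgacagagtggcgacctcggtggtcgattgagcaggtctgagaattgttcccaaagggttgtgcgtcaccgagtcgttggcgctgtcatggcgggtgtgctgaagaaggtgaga
UQCRH (chr1:46303448-46303747, plus strand): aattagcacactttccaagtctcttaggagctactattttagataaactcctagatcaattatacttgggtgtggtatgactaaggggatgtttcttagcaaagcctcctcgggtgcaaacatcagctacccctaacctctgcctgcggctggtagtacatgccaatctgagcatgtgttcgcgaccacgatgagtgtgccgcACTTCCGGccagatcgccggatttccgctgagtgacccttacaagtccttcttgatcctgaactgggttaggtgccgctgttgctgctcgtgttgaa
SDHD (chr11:112086623-112086922, plus strand): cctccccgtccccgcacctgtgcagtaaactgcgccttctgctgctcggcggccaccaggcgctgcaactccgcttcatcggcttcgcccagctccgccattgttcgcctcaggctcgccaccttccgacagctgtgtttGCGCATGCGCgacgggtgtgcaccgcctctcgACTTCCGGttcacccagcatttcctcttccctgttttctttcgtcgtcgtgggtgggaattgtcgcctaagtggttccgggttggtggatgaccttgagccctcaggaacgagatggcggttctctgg
The NRF1 core is shared by CYCS and NDUFA5 and also by a window of NDUFS6, which fell on Day42. NDUFA5 has 3 windows in the table, of which the one with the motif is shown.

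Within a day, the libraries differed in the same direction for most nuclear-encoded genes. Day0 library 3 was the lowest of its day for 69 of 83 genes with a mean of at least 1 CPM, Day21 library 1 for 77 of 83 and Day42 library 2 for 55 of 82. The same order was not counted over all genes, so it may not be particular to these. The median coefficient of variation over the genes was 27.8% on Day0, 28.6% on Day21 and 23.3% in the Day42 libraries. The genes are therefore not independent repeats of a day's level, and a count of falls is not a count of separate observations. The falls on Day42 did not rest on Day42 library 3. Without it, 64 of 98 genes tested fell and 1 rose against Day21, beside 22.3% and 11.1% of all genes.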

How the data were processed

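RNA-seq libraries of WA09 TPH2-EGFP knock-in cells, 3 each on Day0, Day21 and Day42, were made from about 10 ng of total RNA with a low-input kit, per the labels' protocols. The deposited table holds raw counts per gene and FPKM, length- and depth-scaled values computed by the authors, per the file headers. Cutadapt 1.9, FastQC and the GRCh38 build appear in the submitters' processing notes; for the aligner, the counting program and its strand setting, the sources used here give nothing. Columns were matched to libraries by name, and replicate numbers come from the labels.

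Members were taken by the symbol rule among protein-coding genes; 49 rows with such symbols were not protein-coding. Members, gene lists and motifs were chosen with earlier results of these data known. Genes named are MT-CO2, CYCS, all mitochondrial-encoded genes, tissue isoforms and, per nuclear complex or list and comparison, up to 3 called genes with the largest change in each direction or, where none was called, the 2 most abundant. NDUFS1, NDUFS3, NDUFS7, NDUFS8, NDUFV1, NDUFV2, SDHA, UQCRC1, UQCRC2, UQCRFS1 and CYC1 were also named after their values were seen, for their roles. So were ATP5F1A, ATP5F1B, ATP5F1E, ATP5PF, ATP5MC3, NRF1 and GABPA. SDHB, SDHD and COX6A1 came under the rule for Day21 against Day0 alone, and their Day42 values were described after they were seen. UQCRB came under the rule and is not described.

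Counts were kept by filterByExpr (20156 genes), scaled by TMM and fitted with 1 mean per day over all 9 libraries in edgeR 4.0.16 (R 4.3.3; 6 residual degrees of freedom, prior 2.42). The fit was run on simulated data with known changes in a small part of the genes and 1 spread for all genes and libraries. These data have many more changes and an outlying Day42 library, so the simulation does not show how well the fit holds here. Values are means ± SD over libraries, and fold changes are given ± SE. In edgeR this SE was derived from the test, as the absolute log2 fold change over the square root of its F statistic. DESeq2 1.42.0 and limma 3.58.1 served as alternatives; limma used log2(FPKM + 1) or log2(FPKM + 0.1), where fold changes of low genes are understated. mRNA lengths are medians over the annotated protein-coding transcripts of a gene in GENCODE 29, where all 102 members lay on the same chromosome and strand. The transcripts expressed here were not measured, and such a median can lie well below the length of the transcript in use.

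Counts pile up at multiples of 4, so a count is not an independent fragment. Reads are uncertain for 38 members that overlap another gene model on the same strand, NDUFA7, NDUFS1, SDHD, ATP5MC2, ATP5MF, COX6A1, COX6B2 and COX7C among those described, and for 19 that overlap one on the other strand alone, such as ATP5ME, COX4I1, UQCRQ and NDUFS7. Of pseudogenes of nuclear members, 60 are in the table.

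Same-numbered libraries did not deviate together (correlations of their deviations from the day means of -0.27, 0.09 and -0.41 between Day21 and Day0), so the numbers were not taken as pairs.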

Additional observations from a re-analysis of the deposited data

How the results depend on the processing

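Scaling alone left the members called lower on Day42 at 60 to 63 against Day21 and 59 to 66 against Day0. Limma on FPKM and the removal of the length trend, which also rescaled the libraries, lowered these counts most. Voom with sample quality weights called 40 and 43 members lower against Day21 and Day0, beside 14.5% and 18.7% of all genes. With the replicate number as a block, 44 and 48 were lower, beside 8.95% and 13.2% of all genes. The library preparation was from about 10 ng of RNA, counts are not independent fragments, and 3 libraries a day leave small changes out of reach. Of 3150 values of the named members under alternatives, 2874 kept their direction and side of the threshold, 55 newly passed and 125 no longer passed. In another 89 the direction changed between values that passed in neither fit, 20 of them with the length trend removed, for example CYCS on Day42 against Day0 (1.40 with the trend removed). In 7 a called gene changed direction, each with the length trend removed: on Day42 against Day21 ATP5MC1 (0.30), ATP5MC3 (0.012), COX8A (0.17) and MT-ND4 (0.15), and on Day42 against Day0 ATP5MC1 (0.016), ATP5MC2 (0.29) and MT-ND4 (0.34), all as log2 fold changes. The cause of these changes was not tested.

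Members called lower on Day21 against Day0 numbered 0 under upper-quartile scaling, with mitochondrial-genome genes left out of scaling, with no filter and with the length trend removed. They numbered 2 under DESeq2 and 4 under voom with sample quality weights, which called 1 higher. A fit on only the 2 days compared called 2 lower and 1 higher. Of all genes, 15.8% were lower and 18.5% higher under voom, and 12.6% and 13% with only the 2 days compared. Members called higher on Day42 against Day21 numbered 3 under DESeq2, 3 with a filter at an FPKM of at least 1 in 3 libraries, 2 at an adjusted p under 0.05 alone, and 6 each with limma on log2(FPKM + 1), with limma on log2(FPKM + 0.1) and with the length trend removed. Against Day0 the members called higher were 2 under DESeq2, 2 with the FPKM filter, 1 under voom, 5 and 4 with limma at pseudocounts 1 and 0.1, and 6 with the length trend removed. Beside these, 13%, 16.6% and 10.9% of all genes were higher against Day0 under DESeq2, the FPKM filter and voom. Against Day21, 10.5% of all genes were higher under DESeq2, 13.4% with the FPKM filter and 6.65% at an adjusted p alone. Members called lower on Day42 were 36 and 37 against Day21 and 31 and 30 against Day0 with limma at pseudocounts 1 and 0.1, and 7 and 9 with the length trend removed. Of all genes in these fits, 16.6%, 17.9% and 11.1% were lower against Day21 and 19.6%, 20.5% and 14.3% against Day0. The higher shares were 19.9%, 20.4% and 11.7% against Day21 and 22%, 22.7% and 14.3% against Day0.

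Over all genes, Day21 against Day0 gave 1387 higher and 1565 lower calls under DESeq2, 462 and 419 with the FPKM filter, 71 and 69 with the length trend removed, 674 and 651 with limma at a pseudocount of 0.1, 616 and 700 at 1, 2550 and 2459 with only the 2 days compared, and 3734 and 3191 under voom. Day42 against Day21 gave 2121 higher calls under DESeq2, 2164 and 2110 with limma at 0.1 and 1, and lower calls of 1676 with the FPKM filter, 1642 with the length trend removed and 1896 and 1759 with limma at 0.1 and 1. The genes tested were 10619 with the FPKM filter and limma and 14806 with the length trend removed, against 20156 as reported. As shares, those lower calls were 15.8%, 11.1%, 17.9% and 16.6%, against 19.7% as reported. Day42 against Day0 gave lower calls of 1993 with the FPKM filter, 2118 with the length trend removed and 2178 and 2079 with limma at 0.1 and 1. The median log2 fold change of all genes on Day42 against Day21 was -0.68 under upper-quartile scaling and 0.02 with limma on log2(FPKM + 1), against -0.54 as reported; the median over the members tested in each was -1.61 and -0.77.

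The replicate numbers are not taken as pairs. With the replicate number as a block, 0 members were lower on Day21 against Day0 and 1 was higher on Day42 against Day0. All genes then gave 76 higher and 33 lower calls on Day21 against Day0, 617 and 1803 on Day42 against Day21, and 1051 and 2659 on Day42 against Day0. Same-numbered libraries did not correlate best with each other: Day21 library 1 deviated with Day0 library 3 (0.51).

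When each library was left out in turn, the members called lower were 0 to 3 on Day21 against Day0, 47 to 64 on Day42 against Day21 and 48 to 68 on Day42 against Day0, and those called higher were 0 to 3 in either Day42 comparison. All genes gave 91 to 1434 higher and 42 to 1460 lower calls on Day21 against Day0, 621 to 2416 higher and 2680 to 5046 lower on Day42 against Day21, and 1072 to 3220 higher and 3545 to 5664 lower on Day42 against Day0. The highest counts of higher calls over all genes came without Day42 library 3, and the 3 members higher in either Day42 comparison came without Day42 library 2. Without any 1 Day0 or Day21 library no member was lower on Day21 against Day0, and without any 1 Day21 library none was higher on Day42 against Day21. A day left with 1 pair of libraries is assumed to vary like the others.

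The share of counts in mitochondrial-encoded genes was 19.9%, 17.8% and 6.46% on Day0, Day21 and Day42 as a share of summed FPKM, and 3.00%, 2.61% and 1.11% of counts without the most abundant member of each genome. The log2 ratio of mitochondrial-encoded to nuclear-encoded sums was 0.50, 0.19 and -0.79 on the 3 days, 1.77, 1.45 and 0.59 in FPKM, and -0.75, -1.09 and -1.32 without those members. Median-of-ratios scaling, summed rows of a symbol and nuclear copies added to the mitochondrial genes, the last chosen after seeing the data, changed no count of calls by more than 1.5 times.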
